A study of Mus musculus with 11 samples.

Results

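The chaperones of the endoplasmic reticulum (ER) and the machinery of the unfolded protein response were followed through 39 genes, named by symbol and sorted by known role, of the 54513 genes in the deposited table. The 5 roles are ER chaperones and folding enzymes (14 genes), the stress sensors with XBP1 (4), the ATF4 and CHOP arm (7), ER-associated degradation (7) and translocation into the ER (7). All 39 were found, and all 39 were among the 19267 genes that passed the filter on low counts. RNA was taken from mouse colonic epithelial cells after lymphocytes had been removed on Percoll, a density medium. DSS DKO libraries (n = 3) came from mice that lack the miR-181a1-b1 and miR-181a2-b2 clusters (DKO) and received 2% dextran sulfate sodium (DSS), a chemical that injures the colon lining, for 7 days with 2 days of recovery. DSS WT libraries (n = 3) came from wild-type mice given the same treatment, and baseline DKO (n = 3) and baseline WT (n = 2) libraries came from mice without DSS. All groups share the cell isolation. The labels name no strain, age or sex, do not say that the clusters were deleted in the epithelium alone, and do not say whether each library is 1 mouse, so the p-values below measure the spread between these samples.

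The unfolded protein response adjusts the folding capacity of the ER to the load of new secreted and membrane proteins. Sensors in the ER membrane start it: IRE1, which splices the messenger RNA of XBP1, ATF6, which is cut to release a transcription factor, and PERK, which slows translation and favours that of ATF4. XBP1 and ATF6 switch on chaperones, translocation and degradation genes, while ATF4 switches on CHOP (Ddit3) and genes of amino acid supply. In the gut, secretory epithelial cells such as goblet cells carry a heavy folding load and express their own IRE1 paralog, Ern2.

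Libraries held 41632000 to 52761900 counts, and replicates differed by more than sampling noise. The microRNA genes that the DKO lacks, Mir181a-1, Mir181b-1, Mir181a-2 and Mir181b-2, had 0 counts in every library, so these libraries of polyadenylated RNA do not check the genotype. Ribosomal RNA took 25.8% of baseline DKO replicate 1 and 9.88% of replicate 2, against 0.690% to 2.59% elsewhere. All DSS libraries had the female pattern (Xist 633 to 906 CPM, Ddx3y 0.162 to 0.895 CPM) and all baseline libraries the male pattern (Xist 6.75 to 14.5 CPM, Ddx3y 42.6 to 54.9 CPM), where CPM is the count scaled to library size with TMM factors. DSS against baseline therefore cannot be told apart from sex, while DKO and WT have the same pattern within each treatment. Pan-epithelial marker genes, led by Krt8 and Krt19, summed to 10343 to 11905 CPM in DSS DKO, 12200 to 13524 CPM in DSS WT, 14174 to 16006 CPM in baseline DKO and 11794 to 13283 CPM in baseline WT libraries, so the labelled tissue was present in each.

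The promoters of several of these genes carry the ER stress response element (ERSE), the DNA element through which ATF6 and the factor NF-Y are known to act. It reads CCAAT, 9 bases of any kind, then CCACG. RefSeq promoter sequences (GRCm38.p6, from 250 bases before to 50 after the start site) were at hand for 31 of the 39 genes, all but Hyou1, Sec61a1, Derl1, Atf6, Manf, Ostc, Ern2 and Ssr2. On either strand the ERSE was found in 9 of the 31 (Hspa5, Hsp90b1, Pdia6, Dnajc3, Calr, Canx, Creld2, Syvn1 and Derl3), against 0.119% of 32851 promoters of the same length. The related ERSE-II (ATTGG, 1 base, CCACG) was found in Dnajb11 and Herpud1, against 0.0365% of promoters. The element bound by ATF4 with its partners, TGATGNAA, was found in Atf3, Trib3, Chac1, Asns and Herpud1, against 3.97%. The XBP1 element TGACGTGG was found in 0 of the 31, against 0.676%. The elements are shown with 10 bases on each side because their holders make up much of the chaperone branch; capitals mark the fixed letters, each line reads 5′ to 3′ on the strand of the gene, and an element on the opposite strand appears as its reverse complement.
Hspa5, chr2:34772015-34772053, plus strand: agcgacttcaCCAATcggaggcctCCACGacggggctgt
Hsp90b1, chr10:86705628-86705666, minus strand: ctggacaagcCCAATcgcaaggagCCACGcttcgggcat
Hsp90b1, chr10:86705523-86705561, minus strand: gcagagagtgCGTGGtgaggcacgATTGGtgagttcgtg
Pdia6, chr12:17266481-17266519, plus strand: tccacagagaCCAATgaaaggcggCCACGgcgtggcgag
Canx, chr11:50325790-50325828, minus strand: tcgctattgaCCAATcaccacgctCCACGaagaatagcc
Calr, chr8:84847065-84847103, minus strand: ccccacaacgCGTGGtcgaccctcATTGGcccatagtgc
Creld2, chr15:88819510-88819548, plus strand: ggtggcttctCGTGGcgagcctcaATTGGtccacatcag
Herpud1 (ERSE-II), chr8:94386367-94386397, plus strand: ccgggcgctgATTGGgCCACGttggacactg
Herpud1 (ATF4 element), chr8:94386307-94386334, plus strand: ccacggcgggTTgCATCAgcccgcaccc
Hspa5 had its element 65 bases before the start site, and Hsp90b1 had 2, at 212 and 107 bases before it. Herpud1 was the 1 gene of the set with both an ERSE-II and an ATF4 element in the window.

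The deleted clusters encode miR-181a and miR-181b, whose mature strands share the seed ACAUUCA (bases 2 to 8, in capitals), the part of a microRNA that pairs with its targets. Mature miR-181a lies at chr1:137966468-137966490 and chr2:38852741-38852763, and miR-181b at chr1:137966650-137966673 and chr2:38853845-38853868 (RefSeq, GRCm38.p6).
mmu-miR-181a-5p: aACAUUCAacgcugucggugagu
mmu-miR-181b-5p: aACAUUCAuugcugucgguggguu
Sites were sought in the longest annotated 3′ UTR. A site was a match to the whole seed, or to all of it but base 8 with an A after the match. Such a site was found in 12 of the 39 genes (30.8%), against 22.9% of 14501 tested genes with a 3′ UTR. The 12 were Hspa5, Hsp90b1, Pdia6, Dnajc3, Hyou1, Atf6, Edem1, Sel1l, Derl1, Derl2, Ssr1 and Ssr3. In Hspa5, Derl2 and Ssr3 the only site was of the second kind, without base 8. The sites of 3 chaperones are shown because these genes changed with genotype. Capitals mark the seed match and the A after it, on the sense strand. The match covers the whole seed in Hsp90b1 and Dnajc3, and leaves out base 8 in Hspa5.
Hspa5: acttaagtctcGAATGTAattggaat
Hsp90b1: aacattcctccTGAATGTAaatttgt
Dnajc3: ggaaggaagcaTGAATGTAgcagcca
Of the 12 genes with a site, 6 were lower in DKO after DSS (Hspa5, Hsp90b1, Pdia6, Dnajc3, Edem1 and Derl2), 0 were higher and 6 did not pass, and of the 27 without a site 8 were lower, 2 higher and 17 did not pass. Over all tested genes with a 3′ UTR, 8.87% of 3314 with a site and 6.83% of 11187 without one were lower, and 5.67% and 6.17% were higher. These shares are a description, with no test of the site. Hspa5 also lies on chromosome 2, 4.08 megabases from Mir181a-2, and a part of the DNA around the deletion in its level was not tested.

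After DSS, 11 of the 14 ER chaperones and folding enzymes were lower in DKO than in WT cells, and 5 of the other 25 members passed the test in either direction. Of the 39 genes, 14 were lower and 2 higher, and 23 did not pass, by the quasi-likelihood test of edgeR, with p adjusted after Benjamini and Hochberg over all 19267 genes and a threshold of 0.05. Over all genes tested, 5.98% were lower and 5.26% higher. At an unadjusted p under 0.05 there were 23 of the 39 members, a count that was not made over all genes. The median log2 fold change of the 39 was -0.35, against 0.03 over all genes. Of the 14 lower genes, 11 were chaperones and folding enzymes; the others were Edem1, Derl2 and Ostc, and the 2 higher genes were Atf4 and Herpud1. In bulk RNA, fewer cells of a type and less RNA per cell cannot be told apart.

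Among the 14 chaperones and folding enzymes, 11 were lower, 0 higher and 3 did not pass after DSS, with a median log2 fold change of -0.60. Summed over the 14, they stood at 4064 to 4741 CPM in DSS DKO, against 6614 to 6823 CPM in DSS WT, and at 3559 to 4188 CPM in baseline DKO, against 3405 to 3856 CPM in baseline WT libraries. The sum in DSS DKO libraries thus lay below every DSS WT library and reached above the baseline DKO range in 1 of 3 libraries.

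**Figure D1:**
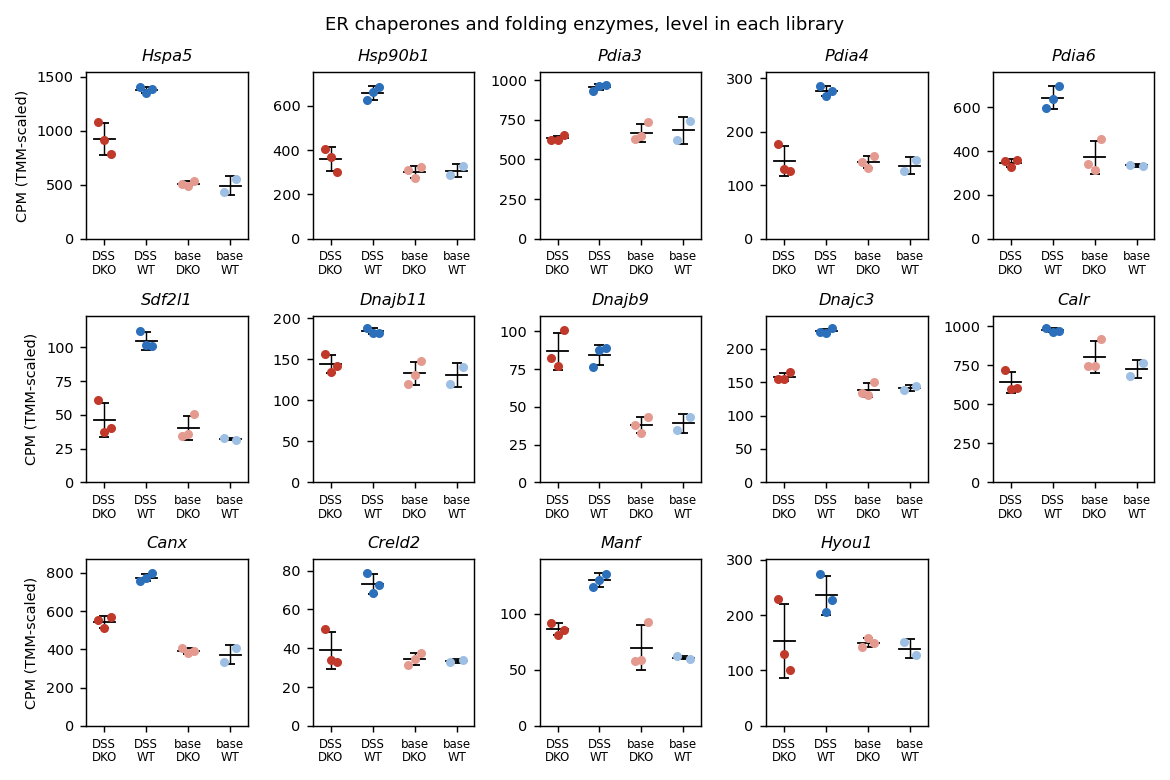
Level of the 14 chaperone and folding genes in each library, in TMM-scaled CPM on linear axes that start at 0; points are libraries, horizontal lines group means and bars the SD (n = 3, and 2 for baseline WT). In Hspa5, Hsp90b1, Pdia3, Pdia4, Pdia6 and Sdf2l1 all 3 DSS DKO points lie below all 3 DSS WT points, whereas in Dnajb9 the DSS groups overlap and both lie above baseline.

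Hspa5 encodes BiP, the main Hsp70 chaperone of the ER lumen and the regulator that holds the sensors inactive. It stood at 1082, 912 and 784 CPM in DSS DKO, against 1404, 1351 and 1386 CPM in DSS WT, and at 509, 489 and 535 CPM in baseline DKO, against 432 and 552 CPM in baseline WT libraries. Every DSS DKO library was below every DSS WT library and above every baseline library. The log2 fold change of DKO over WT after DSS was -0.58 ± 0.13 (SE; adjusted p = 0.0190). Per kilobase of exon Hspa5 averaged 219 CPM in DSS DKO and 326 CPM in DSS WT libraries, and with Calr (223 and 338 CPM per kilobase) and Pdia3 (201 and 304 CPM per kilobase) it led the set on that scale in DSS WT.

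Sdf2l1, a cofactor that helps BiP keep unfolded proteins soluble, had the lowest log2 fold change of the called members, -1.18 ± 0.19 (SE; adjusted p = 0.00341). It was at 61.0, 37.6 and 40.3 CPM in DSS DKO, against 112, 101 and 101 CPM in DSS WT, and at 34.2, 35.6 and 50.3 CPM in baseline DKO, against 32.9 and 31.4 CPM in baseline WT libraries. DSS DKO replicates 2 and 3 lay within the baseline DKO range, and replicate 1 above it. Creld2, a secreted and ER-resident stress protein, behaved alike in level: 50.03, 33.9 and 33.0 CPM in DSS DKO, against 78.5, 68.4 and 72.6 CPM in DSS WT, and 31.5, 34.7 and 37.4 CPM in baseline DKO, against 32.7 and 34.2 CPM in baseline WT libraries. All 3 DSS DKO values of Creld2 were below the DSS WT values (log2 fold change -0.91 ± 0.15, SE; adjusted p = 0.00445).

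Hsp90b1 encodes the Hsp90 of the ER, which folds receptors and integrins. It was at 406, 369 and 299 CPM in DSS DKO, against 625, 662 and 687 CPM in DSS WT, and at 308, 272 and 324 CPM in baseline DKO, against 289 and 327 CPM in baseline WT libraries. Its DSS DKO libraries overlapped the baseline range, while its DSS WT libraries stood above all others (DKO over WT after DSS -0.88 ± 0.13, SE; adjusted p = 0.00209). Manf, a secreted neurotrophic factor that binds BiP, was at 92.1, 81.5 and 85.5 CPM in DSS DKO, against 124, 130.1 and 136 CPM in DSS WT, and at 58.1, 58.6 and 92.6 CPM in baseline DKO, against 62.1 and 59.9 CPM in baseline WT libraries. Baseline DKO replicate 3 was as high as the DSS DKO libraries for this gene, and the difference after DSS was -0.59 ± 0.16 (SE; adjusted p = 0.0347).

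The protein disulfide isomerases, which form and rearrange disulfide bonds, were lower together. Pdia4 was at 178, 129.7 and 127 CPM in DSS DKO, against 285, 267 and 275 CPM in DSS WT, and at 143, 132 and 154 CPM in baseline DKO, against 126 and 147 CPM in baseline WT libraries (-0.93 ± 0.14 after DSS, SE; adjusted p = 0.00213). Pdia6 was at 354, 327 and 359 CPM in DSS DKO, against 595, 640.1 and 699 CPM in DSS WT, and at 343, 314 and 457 CPM in baseline DKO, against 339 and 332 CPM in baseline WT libraries (-0.90 ± 0.14, SE; adjusted p = 0.00254). For both genes the DSS DKO libraries lay in or near the baseline range and the DSS WT libraries stood alone above it. Pdia3, the isomerase that works with calnexin and calreticulin, was at 621, 625 and 652 CPM in DSS DKO, against 934, 961 and 968 CPM in DSS WT, and at 627, 646 and 733 CPM in baseline DKO, against 624 and 744 CPM in baseline WT libraries. Its DSS libraries did not overlap, and its log2 fold change was -0.59 ± 0.11 (SE; adjusted p = 0.00604).

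Calr and Canx encode calreticulin and calnexin, the lectin chaperones that hold new glycoproteins. Calr was at 718, 599.8 and 605 CPM in DSS DKO, against 986, 962 and 972 CPM in DSS WT, and at 743, 743 and 920.5 CPM in baseline DKO, against 684 and 764 CPM in baseline WT libraries. All 3 DSS DKO values of Calr were below those of the 3 baseline DKO libraries, a difference that did not pass (DSS over baseline in DKO -0.32 ± 0.12, SE; adjusted p = 0.0730), while DKO over WT after DSS was -0.60 ± 0.12 (SE; adjusted p = 0.0103). Canx was at 555, 509 and 569 CPM in DSS DKO, against 757, 771 and 797 CPM in DSS WT, and at 409, 378 and 391 CPM in baseline DKO, against 336 and 406 CPM in baseline WT libraries. Unlike Calr it stood above baseline in every DSS library of both genotypes, at a lower level in DKO (-0.51 ± 0.10 after DSS, SE; adjusted p = 0.0108).

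The J-domain cochaperones of BiP, which direct it to its clients, gave 1 call among 3. Dnajc3, which also restrains PERK, was at 155, 155 and 165 CPM in DSS DKO, against 225, 224 and 231 CPM in DSS WT, and at 134, 131 and 150.5 CPM in baseline DKO, against 139 and 144 CPM in baseline WT libraries, and was lower (-0.52 ± 0.09, SE; adjusted p = 0.00575). Dnajb11 had a log2 fold change of -0.35 ± 0.11 (SE) and did not pass (adjusted p = 0.0597), although its 3 DSS DKO libraries (134 to 157 CPM) lay below the 3 DSS WT libraries (182 to 188 CPM). Dnajb9 was at 82.1, 77.1 and 101 CPM in DSS DKO, against 76.4, 87.4 and 88.9 CPM in DSS WT, and at 37.9, 32.7 and 43.5 CPM in baseline DKO, against 34.5 and 43.5 CPM in baseline WT libraries. Dnajb9, a known target of spliced XBP1, overlapped between the DSS groups (0.04 ± 0.14, SE; adjusted p = 0.891). Hyou1, a nucleotide exchange factor for BiP, spread from 102 to 229 CPM in DSS DKO and from 205 to 274 CPM in DSS WT libraries and did not pass (-0.62 ± 0.25, SE; adjusted p = 0.138). Without DSS DKO replicate 1, its highest DSS DKO library, Hyou1 was at -1.02 and passed (adjusted p = 0.00143), as it did with no filter on low counts (adjusted p = 0.000402). Dnajb11 passed without DSS DKO replicate 1 (adjusted p = 0.0365), without baseline DKO replicate 3 (0.0469), by DESeq2 (0.0296), at a minimum count of 50 (0.0422) and in the DSS libraries by themselves (0.0497).

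**Figure D2:**
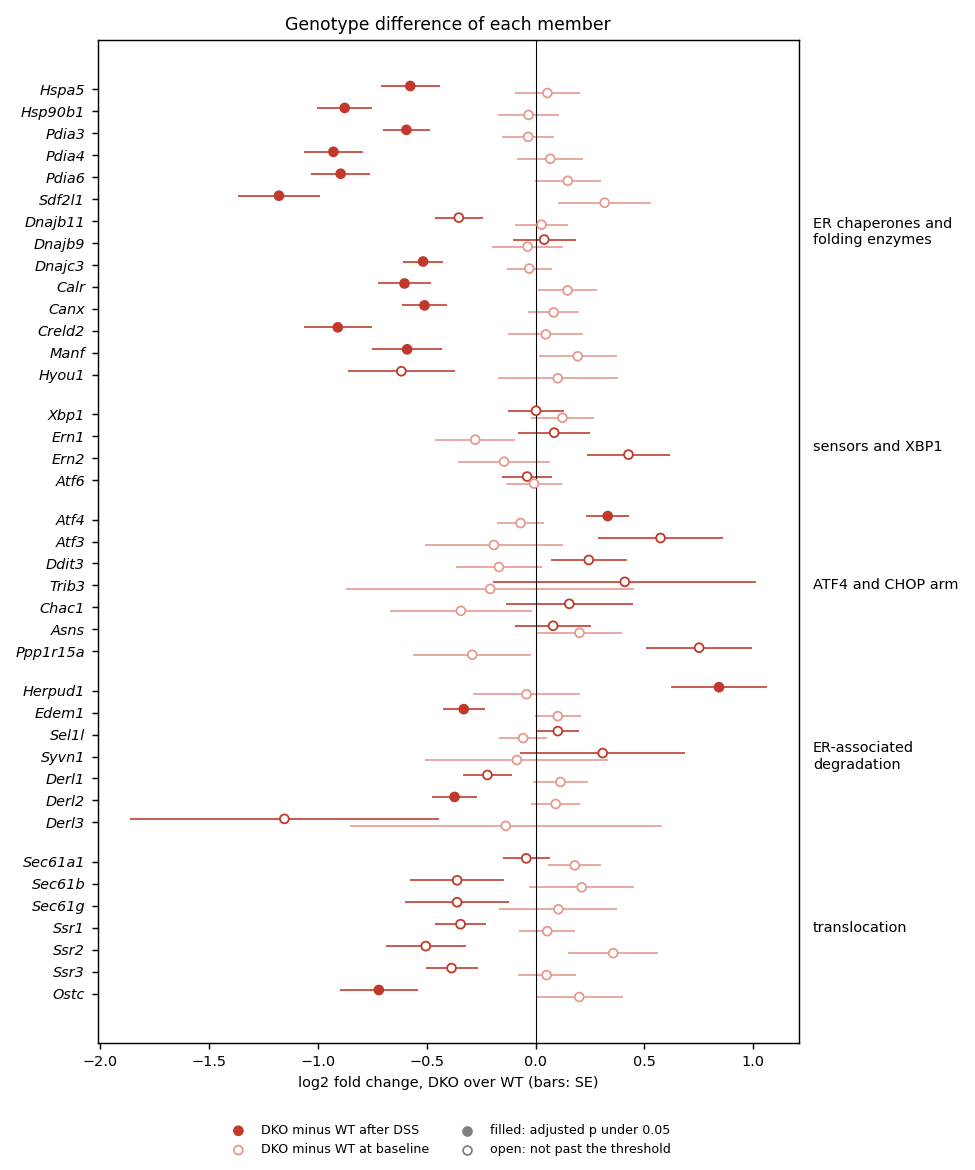
Log2 fold change of DKO over WT for each of the 39 genes after DSS (dark) and at baseline (light), with SE bars, grouped by role; filled points passed an adjusted p under 0.05. After DSS 11 of 14 chaperone and folding genes are filled to the left of 0 and Atf4 and Herpud1 are filled to the right, while 0 of 39 baseline points are filled.

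At baseline no member passed the test. Of the 39 genes 0 were higher and 0 lower in DKO, with 0 at an unadjusted p under 0.05, and DESeq2 also called 0. Over all genes, 0.0104% were higher and 0.0156% lower. The median log2 fold change of the 39 was 0.05, against 0.01 over all genes, and single values ran from -0.34 (Chac1) to 0.36 (Ssr2). Hspa5 was at 0.05 ± 0.15 (SE) and Sdf2l1 at 0.32 ± 0.21 (SE). The baseline libraries of Sdf2l1, Chac1 and Sec61a1 did not overlap between the genotypes, without passing. How often this occurs over all genes was not counted.

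The sensors and XBP1 showed no difference that passed between DKO and WT after DSS (0 higher, 0 lower and 4 not passed). Xbp1 averaged 284 ± 24.4 CPM in DSS DKO and 283 ± 13.6 CPM in DSS WT libraries (SD, n = 3 each), with a log2 fold change of 0.00 ± 0.13 (SE). Gene-level counts do not separate spliced from unspliced Xbp1. Atf6 was at 84.3, 86.8 and 110.4 CPM in DSS DKO, against 88.8, 100.1 and 100.2 CPM in DSS WT libraries, and Ern1, which encodes the widely expressed IRE1α, at 55.7, 47.5 and 42.2 CPM, against 48.5, 43.8 and 44.8 CPM. Both overlapped between genotypes. Ern2, the IRE1β of mucus-secreting epithelium, was at 93.4, 95.4 and 72.3 CPM in DSS DKO, against 81.2, 53.1 and 60.0 CPM in DSS WT, and at 160.1, 145 and 148 CPM in baseline DKO, against 203 and 130.3 CPM in baseline WT libraries. The DSS groups of Ern2 overlapped (0.43 ± 0.19, SE; adjusted p = 0.172) and every DSS library lay below every baseline library.

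In the ATF4 and CHOP arm 1 of 7 genes was higher in DKO after DSS and 6 did not pass, with all 7 log2 fold changes above 0 and a median of 0.33. Among all 19267 genes tested, 5.26% were called higher, and 10048 had log2 fold changes above 0. Atf4, the transcription factor of the arm, was at 261, 281 and 284 CPM in DSS DKO, against 212, 231 and 213 CPM in DSS WT, and at 186, 199 and 217 CPM in baseline DKO, against 215 and 205 CPM in baseline WT libraries. The 3 DSS DKO libraries were above all others, by 0.33 ± 0.10 (SE) on the log2 scale over DSS WT (adjusted p = 0.0480). Ppp1r15a, which ends the translation block by directing a phosphatase to eIF2α, was at 67.5, 73.0 and 35.4 CPM in DSS DKO, against 36.0, 33.8 and 34.6 CPM in DSS WT, and at 19.6, 19.5 and 27.8 CPM in baseline DKO, against 30.9 and 23.7 CPM in baseline WT libraries. DSS DKO replicates 1 and 2 were high and replicate 3 lay with DSS WT, so the groups overlapped (0.75 ± 0.24, SE; adjusted p = 0.0708). Ppp1r15a passed without DSS DKO replicate 3 (1.01; adjusted p = 0.00517), by DESeq2 (adjusted p = 0.0289) and with no filter on low counts (adjusted p = 0.000634).

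Atf3, a stress-induced transcription factor, split in the same way: 586, 589 and 374 CPM in DSS DKO, against 296, 369 and 377 CPM in DSS WT, and 71.6, 137 and 174 CPM in baseline DKO, against 148 and 143 CPM in baseline WT libraries. Its genotype difference did not pass (0.57 ± 0.29, SE; adjusted p = 0.231), except with no filter on low counts (adjusted p = 0.00158). Ddit3, which encodes CHOP, was at 26.3, 29.5 and 21.6 CPM in DSS DKO, against 18.5, 24.4 and 22.4 CPM in DSS WT, and at 12.1, 12.3 and 14.9 CPM in baseline DKO, against 17.1 and 12.4 CPM in baseline WT libraries. The DSS groups overlapped (0.24 ± 0.17, SE; adjusted p = 0.404). Asns, asparagine synthetase, averaged 54.2 ± 10.4 CPM in DSS DKO and 51.3 ± 3.36 CPM in DSS WT libraries (SD, n = 3 each). Trib3 and Chac1, late targets of the arm, stayed at 0.182 to 0.872 CPM and 0.969 to 1.98 CPM over all 11 libraries, and neither passed in any comparison.

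**Figure D3:**
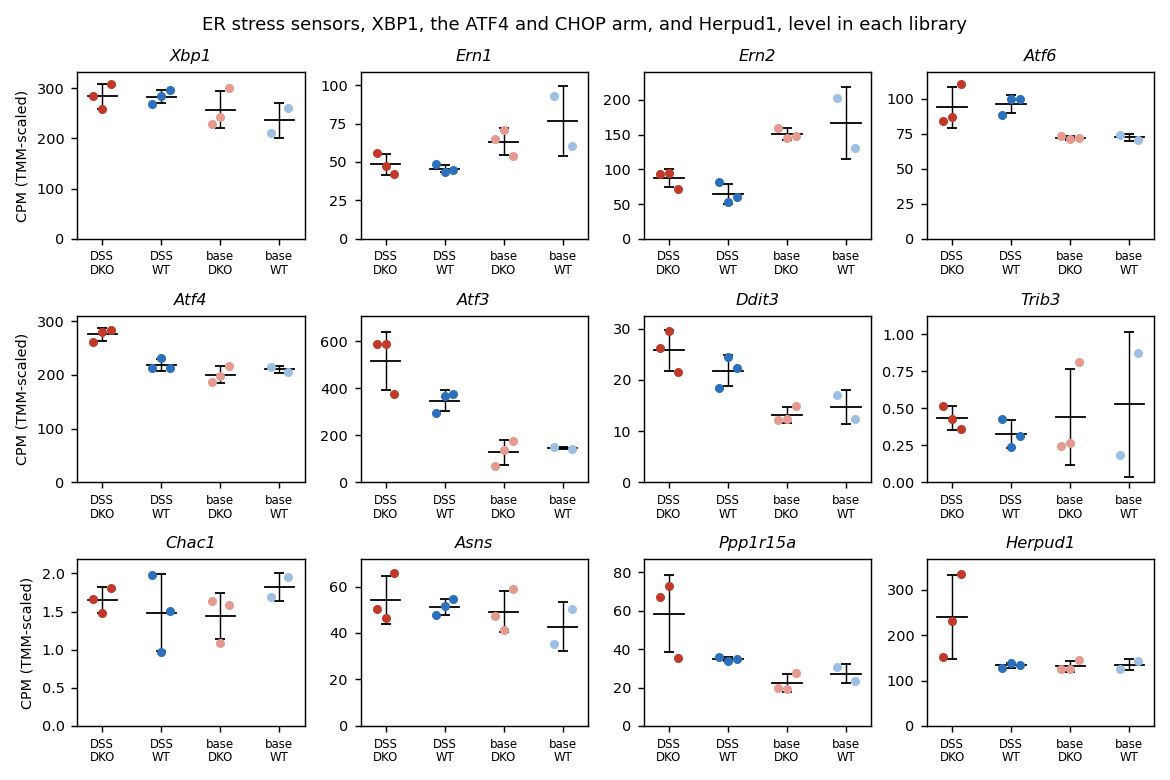
Level of the sensors, Xbp1, the ATF4 and CHOP arm and Herpud1 in each library, in TMM-scaled CPM on linear axes that start at 0; points are libraries, lines group means and bars the SD (n = 3, and 2 for baseline WT). Atf4 and Herpud1 are highest in the DSS DKO libraries, Atf3 and Ppp1r15a are high in 2 of the 3, and Xbp1 and Atf6 overlap between the DSS groups.

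Immediate early genes, which are known to be induced while cells are isolated, summed over 14 genes to 5636, 4621 and 2391 CPM in DSS DKO, against 3278, 2637 and 2532 CPM in DSS WT, and to 2678, 3248 and 3747 CPM in baseline DKO, against 3890 and 3362 CPM in baseline WT libraries. Within the DSS DKO group replicates 1 and 2 were high for this list, for Atf3 and for Ppp1r15a, and replicate 3 was not. The baseline WT sums of the list were above the DSS WT sums, and Atf3 was lower in baseline WT than in DSS WT libraries. Of the 14 genes 1 (Zfp36) was higher in DKO after DSS and 0 lower, where 5.26% of all genes were higher and 5.98% lower. Fos and Jun were the most abundant. Fos ran from 733 to 1217 CPM in DSS DKO and from 595 to 814 CPM in DSS WT libraries. The part of isolation stress in the Atf3 and Ppp1r15a values was not tested.

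ER-associated degradation returns misfolded proteins to the cytosol, and its genes split after DSS: 1 was higher, 2 lower and 4 did not pass. For comparison, 5.26% of all genes tested were higher and 5.98% lower. Herpud1, a scaffold of the degradation complex and a target of ATF4, ATF6 and XBP1, was at 151, 231 and 335 CPM in DSS DKO, against 128, 139 and 133 CPM in DSS WT, and at 125, 125 and 145 CPM in baseline DKO, against 126 and 144 CPM in baseline WT libraries. DSS DKO libraries were spread more than 2-fold and all lay above every other library, with a difference of 0.84 ± 0.22 (SE; adjusted p = 0.0323) over DSS WT. Without DSS DKO replicate 3 it was 0.52 (adjusted p = 0.0604). DSS DKO replicate 3 was its highest library, and the lowest DSS DKO library of Hspa5 and Hyou1.

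Edem1, which picks out trimmed glycoproteins for disposal, was at 142, 125 and 134 CPM in DSS DKO, against 178, 161 and 165 CPM in DSS WT, and at 131, 144 and 138 CPM in baseline DKO, against 132 and 124 CPM in baseline WT libraries. Derl2, a channel component, was at 61.4, 61.3 and 63.3 CPM in DSS DKO, against 79.2, 77.5 and 84.2 CPM in DSS WT, and at 45.8, 49.5 and 56.1 CPM in baseline DKO, against 46.0 and 48.7 CPM in baseline WT libraries. Both were lower in DKO without overlap, by a small step (Edem1 -0.33 ± 0.10, SE; adjusted p = 0.0451, and Derl2 -0.37 ± 0.10, SE; adjusted p = 0.0358). Sel1l and Syvn1, the core of the HRD1 ubiquitin ligase, and Derl1 and Derl3 did not pass, and Derl3 was at trace level (0.0907 to 2.14 CPM). Syvn1 was at 37.2, 19.5 and 13.1 CPM in DSS DKO, against 27.2, 14.0 and 15.3 CPM in DSS WT, and at 49.0, 63.3 and 44.1 CPM in baseline DKO, against 62.6 and 48.0 CPM in baseline WT libraries. Replicate 1 was the highest library of both DSS groups for Syvn1.

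The 7 translocation genes, which pass new proteins through the Sec61 channel, all had log2 fold changes below 0 in DKO after DSS (median -0.36), and 1 of them passed. Among all 19267 genes tested, 9212 had log2 fold changes below 0, and 5.98% were called lower. Ostc, a subunit that couples the oligosaccharyltransferase to the channel, was at 124, 105 and 116 CPM in DSS DKO, against 170.2, 194 and 204 CPM in DSS WT, and at 89.8, 79.5 and 139 CPM in baseline DKO, against 85.2 and 93.8 CPM in baseline WT libraries. Its DSS groups were apart by -0.72 ± 0.18 (SE; adjusted p = 0.0242). The other 6 ran from -0.50 ± 0.18 (Ssr2, adjusted p = 0.102) to -0.04 ± 0.11 (Sec61a1, adjusted p = 0.839), with SE. Among the settings under which they passed, Ssr2 did so without baseline DKO replicate 3 (adjusted p = 0.0122), and Ssr3 (-0.39 ± 0.12, SE; adjusted p = 0.0580) without DSS DKO replicate 3 (0.0443), without DSS WT replicate 1 (0.0488) and by DESeq2 (0.0378). For Sec61b, Sec61g, Ssr2 and Ostc, baseline DKO replicate 3 stood above the other 2 baseline DKO libraries, for example at 79.3 CPM of Sec61b against 40.6 and 42.5 CPM.

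With DSS, more members passed the test as higher in WT than in DKO cells. Log2 fold changes were above 0 for 32 of the 39 in WT and for 28 in DKO. Among all 19267 genes tested, they were above 0 for 9506 in WT and for 9763 in DKO. In DSS WT against baseline WT, 24 of the 39 were higher, 3 lower (Ern1, Ern2 and Syvn1) and 12 did not pass, where 16.9% of all genes were higher and 16.5% lower. The median log2 fold change was 0.48, against -0.01 over all genes. In DSS DKO against baseline DKO, 9 were higher (Hspa5, Dnajb9, Canx, Atf6, Atf4, Atf3, Ddit3, Ppp1r15a and Herpud1), 1 lower (Ern2) and 29 did not pass, where 12.6% of all genes were higher and 10.98% lower. The median was 0.16, against 0.01 over all genes. These differences cannot be told apart from the sex of the mice.

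The counts by role are given side by side, with no test of a difference between roles. For comparison, 12.6% of all genes tested were higher and 10.98% lower in DKO, against 16.9% higher and 16.5% lower in WT. Among chaperones and folding enzymes 3 of 14 were higher in DKO (median 0.18), against 13 of 14 in WT (median 1.04). Among translocation genes 0 of 7 were higher in DKO (median 0.16), against 6 of 7 in WT (median 0.73). In the ATF4 and CHOP arm 4 of 7 were higher in DKO (median 0.46), against 2 of 7 in WT (median 0.26). Among degradation genes 1 of 7 was higher in DKO and 0 lower, against 2 higher and 1 lower in WT.

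In single genes, Hspa5 rose with DSS by 0.86 ± 0.14 in DKO (SE; adjusted p = 0.00134), against 1.49 ± 0.16 in WT (SE; adjusted p = 0.000165). Sdf2l1 was at 0.21 ± 0.19 in DKO and did not pass (adjusted p = 0.441), against 1.71 ± 0.22 in WT (adjusted p = 0.000414). Hsp90b1 was at 0.25 ± 0.13 in DKO (adjusted p = 0.171), against 1.09 ± 0.15 in WT (adjusted p = 0.000460). These 3 chaperones had their higher value in WT. Dnajb9 rose by 1.19 ± 0.15 in DKO and 1.11 ± 0.17 in WT (SE; adjusted p = 0.000321 and 0.000824), with a difference in response of 0.08 ± 0.22 (adjusted p = 0.886). Atf3 rose by 2.02 ± 0.30 in DKO, against 1.25 ± 0.33 in WT (SE; adjusted p = 0.00144 and 0.0169). Herpud1 rose by 0.86 ± 0.22 in DKO (SE; adjusted p = 0.0166) and was at -0.02 ± 0.24 in WT (adjusted p = 0.958). A difference in the response of Atf3 or Herpud1 between the genotypes was not shown (interaction adjusted p = 0.371 and 0.177). Ern2 was lower in both, at -0.79 ± 0.19 in DKO and -1.37 ± 0.21 in WT (SE; adjusted p = 0.0114 and 0.000886). Syvn1 was at -1.16 ± 0.38 in DKO (adjusted p = 0.0538), against -1.56 ± 0.42 in WT (SE; adjusted p = 0.0192).

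**Figure D4:**
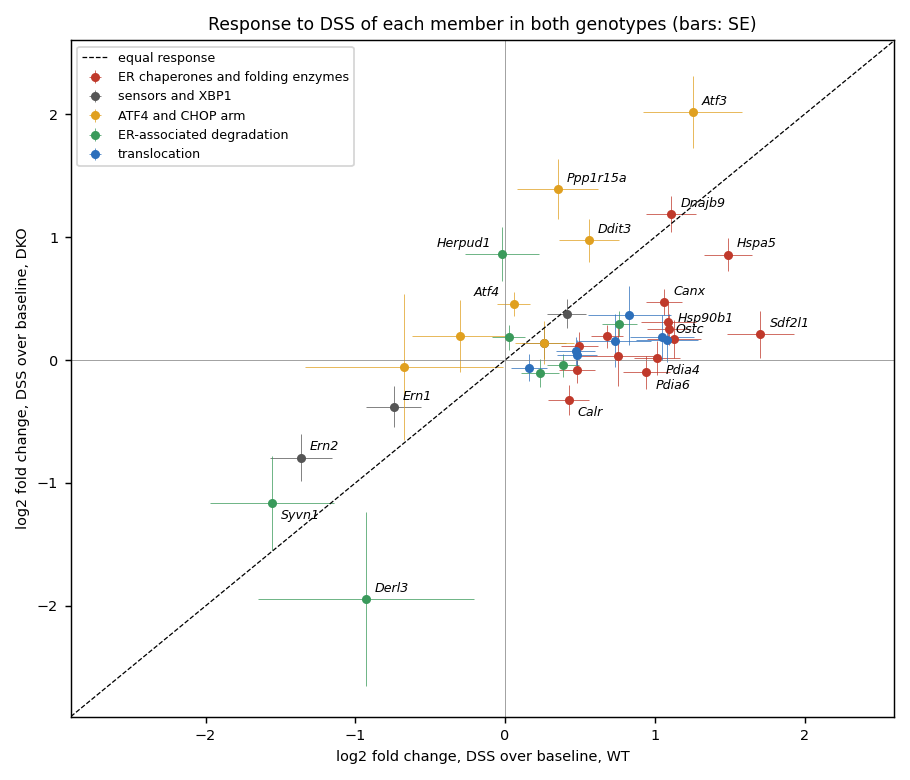
Log2 fold change of DSS over baseline in DKO (vertical) and in WT (horizontal) for each of the 39 genes, with SE bars and colours for the 5 roles; the dashed line marks an equal response. Chaperone and translocation genes such as Sdf2l1, Pdia4 and Ostc lie to the right of the line near 0 in DKO, Dnajb9 lies on it, and Atf3, Ppp1r15a and Herpud1 lie above it.

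The interaction tests whether the difference of DSS and baseline differed between the genotypes; as DSS and sex pattern go together, it cannot be told apart from an interaction of genotype and sex. It called 3 of the 39 genes, all lower in DKO, and 0 higher, where 0.794% of all genes were lower and 0.773% higher. They were Sdf2l1 (-1.50 ± 0.29, SE; adjusted p = 0.0277), Pdia6 (-1.04 ± 0.21; adjusted p = 0.0304) and Pdia4 (-0.996 ± 0.205; adjusted p = 0.0350). The nearest below the threshold were Hsp90b1 (-0.84 ± 0.19; adjusted p = 0.0514), Creld2 (-0.96 ± 0.23; adjusted p = 0.0593) and Calr (-0.75 ± 0.18; adjusted p = 0.0598). Hspa5 was at -0.63 ± 0.20 (adjusted p = 0.124), and for Atf4, Ppp1r15a and Herpud1 a difference in response was not shown (0.40, 1.04 and 0.88, adjusted p = 0.169, 0.156 and 0.177). The median over the 39 was -0.43, against 0.02 over all genes.

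These calls rest on few libraries. After DSS, 7 of the 16 (Hsp90b1, Pdia3, Pdia4, Pdia6, Sdf2l1, Dnajc3 and Creld2) passed under all 19 other settings tried. Without DSS DKO replicate 2, the calls of Hspa5 (adjusted p = 0.0810), Calr (0.0571), Canx (0.0607), Ostc (0.110), Manf (0.135), Herpud1 (0.0912), Atf4 (0.147), Edem1 (0.173) and Derl2 (0.122) were lost, which left 7. Without DSS WT replicate 3, 8 were left, with Hspa5 (0.0734), Canx (0.0555), Ostc (0.100), Manf (0.125), Herpud1 (0.101), Atf4 (0.168), Edem1 (0.118) and Derl2 (0.155) lost. Without DSS WT replicate 2, 9 were left, with Hspa5 (0.0611), Ostc (0.0829), Manf (0.103), Herpud1 (0.0941), Atf4 (0.110), Edem1 (0.0878) and Derl2 (0.0912) lost. Hspa5, Ostc, Manf, Herpud1, Atf4, Edem1 and Derl2 were lost in all 3 of these fits. Manf, Atf4, Herpud1 and Edem1 were also lost without DSS DKO replicate 3 (0.0659, 0.0921, 0.0604 and 0.0769) and without DSS WT replicate 1 (0.0556, 0.105, 0.0680 and 0.131), as was Derl2 (0.0570 and 0.0733), which was lost too without DSS DKO replicate 1 (0.0529). Without baseline WT replicate 1, Herpud1 (0.05004), Atf4 (0.0576) and Edem1 (0.0538) were lost, and without baseline WT replicate 2, Manf (0.0508), Herpud1 (0.0511), Atf4 (0.0603) and Edem1 (0.0554). Without baseline DKO replicate 1 or 2, Atf4 (0.0607 and 0.0636) and Edem1 (0.0533 and 0.0557) were lost. The calls of Atf4 and Edem1 thus rested on nearly every library. Herpud1, Atf4 and Edem1 were lost as well when the 6 DSS libraries were fitted by themselves (0.105, 0.0730 and 0.0586). Every one of the 16 kept its direction in all 19 settings, and over them adjusted p ran to at most 0.0370 for the 7 genes and 0.188 for the others.

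The interaction calls were less stable still: 0 of the 39 genes passed without DSS DKO replicate 2, without DSS WT replicate 2 or 3, and without baseline WT replicate 1 or 2, while 9 passed without DSS DKO replicate 1, with Hspa5 (0.0353), Hsp90b1 (0.0128), Calr (0.0193), Creld2 (0.00271) and Hyou1 (0.0121) gained as lower and Herpud1 (0.0100) as higher. Without DSS DKO replicate 3, Ppp1r15a was gained as higher (0.0219). Without baseline DKO replicate 1, Pdia6 (0.0614) and Pdia4 (0.0770) were lost, without replicate 2 Pdia4 (0.0561), without replicate 3 Sdf2l1 (0.0614) and Pdia4 (0.0847), and without DSS WT replicate 1 Pdia4 (0.0587). DESeq2 called 10 genes in the interaction, all lower, among them Hsp90b1, Calr, Canx and Creld2.

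Of the responses to DSS in WT, 14 of the 27 calls passed under all settings, among them Hspa5, Hsp90b1, Pdia4, Pdia6, Sdf2l1, Dnajb9, Canx, Creld2 and Ern2. Without baseline WT replicate 1, 14 were left, and Atf3 (0.107), Syvn1 (0.124), Ern1 (0.172) and Atf6 (0.106) were among the calls lost; without baseline WT replicate 2, 19 were left, with Atf3 (0.0959), Syvn1 (0.0505) and Atf6 (0.122) among those lost. Without DSS WT replicate 2 or 3, 19 were left, and Syvn1 (0.0612 and 0.0605) and Atf6 (0.0846 and 0.0920) were lost again. In DKO, leaving out each library in turn gave 8 to 15 calls, with the highest without baseline DKO replicate 3, where Manf, Derl2, Sec61b, Sec61g, Ssr2 and Ostc were gained as higher (adjusted p = 0.00510 to 0.0289), and without DSS DKO replicate 1 Calr (-0.42; 0.0298) and Syvn1 (-1.68; 0.00362) were gained as lower; Herpud1 was lost without baseline DKO replicate 1 (0.0561) or 2 (0.0671), and Atf6 without baseline DKO replicate 1, 2 or 3 (0.0670, 0.0964 and 0.0694) or DSS DKO replicate 3 (0.120). With both baseline DKO libraries richest in ribosomal RNA left out, an alternative chosen after seeing the data, 1 baseline DKO library remained and 2 members passed, Dnajb9 and Atf3; adjusted p was 0.0654 for Hspa5, 0.131 for Canx, 0.133 for Ppp1r15a and 0.306 for Herpud1.

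Related genes outside the 39 are given from lists of the same branches. Over all genes tested, 5.98% were lower and 5.26% higher in DKO after DSS. Of 23 other ER folding genes 3 were lower in DKO after DSS and 0 higher (median -0.26): Pdia5 (-0.54 ± 0.12), Erp44 (-0.47 ± 0.12) and Uggt1 (-0.38 ± 0.10, SE), an isomerase, a retention factor for folding enzymes and the sensor that sends unfolded glycoproteins back to calnexin. Of 29 other translocation and glycosylation genes 5 were lower and 0 higher (median -0.21), among them Magt1 (-0.63 ± 0.09), Spcs3 (-0.68 ± 0.14), Rpn1 (-0.57 ± 0.12) and Ddost (-0.52 ± 0.12, SE). Magt1, Rpn1 and Ddost belong to the oligosaccharyltransferase and Spcs3 to the signal peptidase. Of 13 other sensors and stress factors, and of 21 other degradation genes, 0 passed in either direction, with medians of 0.03 and -0.04.

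Of 24 other ATF4 target genes 1 was higher and 3 lower in DKO after DSS (median -0.14), where 5.26% of all genes were higher and 5.98% lower. Nupr1, a stress-induced chromatin protein, was higher (1.75 ± 0.32, SE; adjusted p = 0.00933), at 125, 268 and 266 CPM in DSS DKO, against 52.3, 71.7 and 71.6 CPM in DSS WT, and at 241, 163 and 298 CPM in baseline DKO, against 196 and 266 CPM in baseline WT libraries. The DSS WT libraries stood below all others for this gene. Phgdh of serine synthesis (-0.91 ± 0.18), Cth of cysteine synthesis (-0.57 ± 0.14) and Cebpg, a partner of ATF4 (-0.52 ± 0.10, SE), were lower. In DSS against baseline, 2 of 23 other folding genes were higher in DKO, against 10 in WT. Of 29 other translocation and glycosylation genes, 5 were higher in DKO, against 17 in WT. Over all genes tested, 12.6% were higher in DKO and 16.9% in WT.

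Summed markers of goblet cells and of deep crypt secretory cells were lower in DKO than in WT cells after DSS. Over all genes tested, 5.98% were lower and 5.26% higher in that comparison. The 8 deep crypt secretory cell genes summed to 1260 to 1769 CPM in DSS DKO, against 2930 to 3359 CPM in DSS WT, and to 5345 to 10869 CPM in baseline DKO, against 6829 to 7900 CPM in baseline WT libraries, and 5 of 8 were lower in DKO after DSS with 0 higher. Mptx1 was at 2.97 to 5.53 CPM in DSS DKO and 223 to 399 CPM in DSS WT, and Agr2, a disulfide isomerase of the ER that is on the goblet list too, at 664 to 987 CPM in DSS DKO and 1271 to 1530 CPM in DSS WT libraries. The goblet cell genes (14 of 15 measured above the filter, with St6galnac1 at 0 to 0.128 CPM) summed to 6328 to 6662 CPM in DSS DKO, against 9328 to 11030 CPM in DSS WT, and to 37469 to 42743 CPM in baseline DKO, against 42911 to 43507 CPM in baseline WT libraries. Of these 2 were lower after DSS, Clca1 and Spink4. Clca1 averaged 233 CPM in DSS DKO and 2345 CPM in DSS WT libraries, and Spink4 81.1 and 223 CPM. Muc2 overlapped at 1410 to 1882 CPM in DSS DKO and 1532 to 1987 CPM in DSS WT libraries. Between DSS WT and baseline WT the goblet sum was lower while the chaperone sum was higher. The part of secretory cell numbers in the chaperone differences was not tested.

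Markers of some other cell types also differed after DSS, where 5.98% of all genes were lower and 5.26% higher in DKO. T cell genes, led by Gzma and Gzmb, summed to 26.2 to 53.8 CPM in DSS DKO, against 104 to 117 CPM in DSS WT libraries, with 7 of 8 lower, and neutrophil genes, led by Ly6g and S100a9, to 164 to 236 CPM in DSS DKO, against 56.2 to 66.6 CPM in DSS WT libraries, with 4 of 7 higher and 0 lower. Plasma cells, which are rich in these chaperones, were scarce by their defining markers: Jchain was at 1.63 to 4.80 CPM in DSS DKO and 2.74 to 7.10 CPM in DSS WT, Igha at 6.73 to 14.0 CPM and 6.09 to 11.7 CPM, and Mzb1 at 0 to 0.118 CPM over all libraries. The plasma cell list summed to 647 to 699 CPM in DSS DKO, against 665 to 724 CPM in DSS WT, of which Txndc5 and Sdc1, both also made by epithelium, held most, and 1 of its 8 tested genes (Irf4) was lower. B cell genes (led by Cd74 and Ms4a1) and macrophage genes (Lyz2 and Csf1r) had 0 called in either direction, and fibroblast genes (Col1a1 and Col1a2) 3 of 6 higher in DKO after DSS. Of 10 absorptive colonocyte genes (led by Car1 and Muc3) 3 were higher and 1 lower, and of 9 enteroendocrine genes (Chgb and Gcg) 2 were higher and 1 lower. The enteroendocrine genes summed to 373 to 645 CPM in DSS DKO, against 297 to 360 CPM in DSS WT libraries. The part of these cell types in the chaperone differences was not tested.

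Reads of some members cannot be assigned with certainty, since no source used here gives the strand setting of the counting. For example, exons of Manf overlap those of Dcaf1 on the opposite strand by 146 bases, those of Derl2 overlap Mis12 by 231, those of Syvn1 overlap Mrpl49 by 91, those of Hsp90b1 overlap 1810014B01Rik by 415 and those of Ddit3 overlap Mars by 68 bases (GENCODE M21, GRCm38). Sec61g, Sec61b, Derl1 and Dnajb9 share stretches of at least 50 identical bases with other annotated genes, whose own counts over all 11 libraries were at most 184. No source used here says how reads from such stretches were counted.

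Promoter elements and calls can be set side by side as a description. Of the 9 genes with an ERSE, 7 were lower in DKO after DSS (Hspa5, Hsp90b1, Pdia6, Dnajc3, Calr, Canx and Creld2), 0 were higher and 2 (Syvn1 and Derl3) did not pass. The 7 are all chaperones and folding enzymes, of which 11 of 14 were lower, and the 2 are degradation genes. Element and role thus cannot be told apart here. Over all genes tested, 5.98% were lower and 5.26% higher. A part of the elements in the calls was not tested. Of the 2 genes with an ERSE-II, 1 (Herpud1) was higher, 0 were lower and 1 (Dnajb11) did not pass. Of the 5 genes with an ATF4 element, 1 (Herpud1, as above) was higher, 0 were lower and 4 did not pass. Pdia3, Pdia4, Sdf2l1, Edem1 and Derl2, also called lower, had none of the 4 elements in this window, which says only that these letters are not in it.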

How the data were processed

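RNA-seq of 11 libraries was used. Per the submitters' processing notes, reads were aligned with STAR to mm10; no source used here gives versions, the counter, its annotation or its strand setting. Oligo(dT) beads selected the RNA, per the labels' protocols. The authors deposited 1 table of raw counts per gene, with no normalization. From these counts, genes were filtered with filterByExpr (minimum count 10), which left 19267 genes and at least 99.9% of counts per library, scaled by TMM, and tested with edgeR 4.0.16 (R 4.3.3) in a robust quasi-likelihood fit to all 11 libraries with 1 mean per group (common biological coefficient of variation 0.234). Adjusted p-values are Benjamini-Hochberg over all tested genes, two-sided, at 0.05. SE is the log2 fold change over the square root of F. CPM are TMM-scaled. DESeq2 1.42.0, other scalings and filters, a replicate block, fewer groups and leaving out each library were alternatives. The 39 genes and the related lists were chosen with earlier results of these data known. Values in every library are given for genes called in a genotype comparison or the interaction, and for the 8 largest called changes of each DSS comparison; related lists name up to 4 called genes of lowest adjusted p, and marker lists the 2 most abundant. Promoters and microRNAs are RefSeq GRCm38.p6, and positions GENCODE M21 on GRCm38. Libraries held at least 41632000 counts, so counting error limits trace genes alone (Trib3, Chac1 and Derl3). Chi-square per degree of freedom between replicates was 14.4 to 788.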

Additional observations from a re-analysis of the deposited data

Results flagged for a closer look

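For 3 genes the difference of DSS and baseline libraries differed between the genotypes by a test of that difference, the interaction in the edgeR fit, with p adjusted over all genes. The interaction was -1.50 for Sdf2l1 (DSS over baseline 0.21 in DKO and 1.71 in WT), -1.04 for Pdia6 (-0.10 in DKO and 0.94 in WT) and -0.996 for Pdia4 (0.02 in DKO and 1.01 in WT), all on the log2 scale. The DSS libraries were female and the baseline libraries male by Xist and Ddx3y in both genotypes, so neither the treatment difference within a genotype nor the interaction can be told apart from sex.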

How the results depend on the processing

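All 39 genes were recomputed under each alternative, and 0 called values changed sign. Members called in DKO against WT after DSS (16: 2 higher, 14 lower) were 7 to 18 with 1 library left out (0 to 2 higher, 7 to 16 lower) and 14 to 19 under the other settings. The higher count was 3 with no filter and by DESeq2, 1 without ribosomal RNA entries and with the replicate block, 0 in the DSS libraries alone and 0 with both baseline DKO libraries richest in ribosomal RNA left out, an alternative chosen after seeing the data. At baseline the count was 0 under all. For DSS against baseline in WT (27: 24 higher, 3 lower) it was 14 to 28 with 1 library left out (13 to 25 higher, 1 to 3 lower). In DKO (10: 9 higher, 1 lower) it was 8 to 15 (7 to 14 higher, 1 to 3 lower), and 2 (2 higher, 0 lower) without both of those libraries. The lower count there was 2 with DESeq2 size factors, a minimum count of 50 or the replicate block, 3 with no filter and 4 by DESeq2. In the interaction (3: 0 higher, 3 lower) it was 0 to 9 (0 to 1 higher, 0 to 8 lower), 14 with no filter (3 higher, 11 lower), 10 by DESeq2 (10 lower) and 5 without both libraries (5 lower). The replicate block gave 15, 0, 25, 12 and 3 calls in the 5 comparisons. Same-numbered deviations correlated at -0.0705 to 0.302. After DSS each DKO library correlated best with the WT library of its own number (0.302, 0.0194 and 0.201). In the other comparisons not every library did. Whether the number marks a pairing was not tested. The cause of the changes in these counts of calls was not tested. Over all genes, calls after DSS were 1013 higher and 1152 lower, 1807 higher with no filter, 536 higher in the DSS libraries alone, and 344 to 1426 higher and 347 to 1638 lower with 1 library left out. At baseline they were 2 higher and 3 lower, 53 and 26 with no filter, 9 and 7 by DESeq2, 1 higher with the replicate block, 0 and 1 without both libraries, and 0 to 3 and 1 to 3 with 1 library left out. In the interaction they were 149 higher and 153 lower, 764 and 705 with no filter, 555 and 699 by DESeq2, 20 and 66 without both libraries, and 1 to 675 and 1 to 823 with 1 library left out. In DKO, DSS against baseline gave 2430 higher and 2115 lower, 1391 higher in those groups alone, 399 and 558 without both libraries, and 1375 to 2743 and 1230 to 3045 with 1 library left out; in WT the last ranges were 1439 to 3599 and 1336 to 3779. Without 1 baseline WT library, or both of those baseline DKO libraries, the lone library left is assumed to vary like the other groups.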
